A study of Mus musculus with 12 samples.

Results

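The Rab small GTPases were examined in mouse bone marrow-derived macrophages, phagocytes grown from tibial marrow, by RNA sequencing of polyadenylated RNA. Members were all genes present in both deposited count tables whose symbol is Rab followed by a number and at most a letter and a digit, so exchange factors, activating proteins and other interactors stayed outside the family. This gave 59 members of the 54582 symbols that both tables share. The 12 libraries formed 4 groups of 3. WT were wild-type macrophages and KO were macrophages labelled Kif13b-/-, both cultured without apoptotic cells. WT_AC and KO_AC were the same genotypes co-cultured for 90 min with Jurkat cells, a line of human T cells, made apoptotic, at 5 apoptotic cells per macrophage. All mice were 6 to 8 weeks old. The labels of single libraries give serum at 10, 10 and 11% for WT and 12, 13 and 14% for KO, and if these are read as written, serum and genotype cannot be told apart without apoptotic cells. The labels for KO mention both a knockout and a knockdown, and nothing in them says which cells the alteration reaches or whether libraries came from separate animals or cultures, so each p-value reflects library-to-library spread alone, and that spread may be technical.

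Rab proteins are molecular switches of membrane traffic. An exchange factor loads a Rab with GTP on the membrane of one compartment, the loaded Rab recruits effectors such as tethers and motor adaptors, and an activating protein ends the signal by promoting GTP hydrolysis, after which a GDP dissociation inhibitor returns the prenylated protein to the cytosol. In phagocytes, Rab5 proteins mark new phagosomes and early endosomes, Rab7 marks the late phagosomes that fuse with lysosomes, and Rab8, Rab10, Rab11 and Rab35 proteins return receptors and membrane to the cell surface. KIF13B is a plus-end-directed kinesin motor, and Rab10 is known to bind both KIF13A and KIF13B.

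Total counts per library were 18256622 to 18770757 without apoptotic cells and 17000976 to 17285594 with them. Mitochondrial genes took 1.42, 2.05 and 2.52% of counts in WT and 1.11, 0.578 and 1.23% in KO, which do not overlap, and 1.48 to 1.61% in the co-cultured libraries. Their part in differences between KO and WT was not tested. Kif13b, the targeted gene, was at 29.4 ± 1.22 counts per 1000000 counts (CPM, scaled within each table, SD, n = 3) in WT and 19.5 ± 2.88 in KO, a log2 difference of -0.59 (SE 0.14, edgeR adjusted p = 0.0087), which was -0.73 (0.000848) without KO replicate 3 and lost its call without KO replicate 1 (-0.48, 0.0624). With apoptotic cells it was at 92.3 ± 2.81 in WT_AC and 100.8 ± 0.33 in KO_AC, a log2 difference of 0.13 (SE 0.04, edgeR adjusted p = 0.0261; not called without KO_AC replicate 1 or 2 or WT_AC replicate 2, at 0.0612 to 0.147), so the co-cultured libraries labelled KO were higher for the targeted gene and "KO_AC" stands below for the libraries labelled so. The library labelled KO replicate 3 lay closer to WT replicate 1 (chi-square per degree of freedom 8.42) than to KO replicates 1 and 2 (22.7 and 35.5), and values without it are given below for the Rab calls, class shares, the relation with GC content, paralogue ratios and the number of regulators called. Of 11 macrophage markers, 10 exceeded 1 CPM in every group, and Cd163 stayed under 1. The 11 summed to 26195 to 28167 CPM in WT, 26367 to 33085 in KO, 15014 to 16004 in WT_AC and 17930 to 18170 in KO_AC. KO_AC thus lay above WT_AC and KO overlapped WT. Both WT and KO lay above the co-cultured libraries, though each table was scaled on its own. Lyz2 (21602.5 CPM in WT and 10316 in WT_AC) and Cd68 (3656 and 2248) were the largest parts of these sums. Single markers went both ways: with apoptotic cells 4 of the 11 were called higher and 7 lower in WT, and 5 and 5 in KO. The 12 fibroblast and stromal markers summed to 868 to 1056 CPM in WT, 1331 to 1589 in KO, 560.4 to 614 in WT_AC and 378 to 404 in KO_AC. The 19 T-cell markers summed to 47.7 to 48.6 CPM in WT, 54.2 to 64.2 in KO, 119 to 131 in WT_AC and 107 to 118 in KO_AC.

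The 250 bases before the annotated start are shown for Rab8b and Rab8a, a paralogue pair whose ratio separated all 4 groups, and for Rab10, the member known to bind KIF13B. They are printed 5′ to 3′ on the gene's strand from RefSeq (GRCm38.p6), and capitals mark matches on either strand to a GC box (GGGCGG) or a CCAAT box (CCAAT).
Rab8b, chr9:66919706-66919955, minus strand: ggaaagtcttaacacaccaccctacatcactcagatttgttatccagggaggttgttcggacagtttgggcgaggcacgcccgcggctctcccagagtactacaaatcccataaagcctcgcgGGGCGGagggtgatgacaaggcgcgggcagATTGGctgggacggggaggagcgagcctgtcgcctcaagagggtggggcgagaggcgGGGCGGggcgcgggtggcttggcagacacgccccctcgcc
Rab8a, chr8:72160950-72161199, plus strand: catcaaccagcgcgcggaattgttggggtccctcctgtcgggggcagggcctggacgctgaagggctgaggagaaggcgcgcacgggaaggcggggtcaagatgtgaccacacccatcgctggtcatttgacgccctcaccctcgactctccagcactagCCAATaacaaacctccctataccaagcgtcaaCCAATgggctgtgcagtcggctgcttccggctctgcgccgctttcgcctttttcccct
Rab10, chr12:3309970-3310219, minus strand: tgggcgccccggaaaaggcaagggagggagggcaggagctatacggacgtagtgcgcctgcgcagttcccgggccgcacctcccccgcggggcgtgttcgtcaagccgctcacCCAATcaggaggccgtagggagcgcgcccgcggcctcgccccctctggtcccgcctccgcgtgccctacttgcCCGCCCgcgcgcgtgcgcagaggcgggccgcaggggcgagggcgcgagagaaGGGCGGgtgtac
The Rab8b window held 2 GC-box and 1 CCAAT-box matches, the Rab8a window 0 and 2, and the Rab10 window 2 and 1. GC content was 64.4% for Rab8b, 61.6% for Rab8a and 74.8% for Rab10. RefSeq windows were found for 48 of the 59 members (60 windows in all). A GC box stood in 66.7% of these windows against 32.7% of all 32851 windows of the same length, and a CCAAT box in 40% against 33.8%. The E box CACGTG (8.33% against 6.02%), the cyclic AMP response element TGACGTCA (3.33% against 1.55%) and TATAAA (6.67% against 12.4%) were also counted, on both strands. The median GC content was 60.2% for member windows and 52.4% for all windows. A letter match is a description of the window and not a binding site.

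Late endosomal, early endosomal and ER-to-Golgi Rabs made up most of the family's RNA in every group. In WT, 32 of the 59 members reached 10 CPM, 11 lay between 1 and 10 CPM and 16 under 1 CPM. The counts of members reaching 10 CPM were 32 in KO, 29 in WT_AC and 28 in KO_AC. Levels are compared between genes as CPM per kilobase of exonic sequence (CPM per kb). These CPM are scaled within each table, so levels with and without apoptotic cells are not on a common scale. Differences of members between those conditions are given further below. Rab7, which drives fusion of late endosomes and phagosomes with lysosomes (chr6:87999106-88045270), was the highest member in all 4 groups, at 293 ± 7.43 CPM per kb in WT, 304 ± 19.6 in KO, 291 ± 8.16 in WT_AC and 300.2 ± 5.80 in KO_AC. Rab5c, an early endosome Rab (chr11:100715009-100738215), was the next, at 194 ± 11.4 in WT, 228 ± 20.3 in KO, 135 ± 0.725 in WT_AC and 142 ± 3.20 in KO_AC. Rab1a and Rab1b, both of which act in ER-to-Golgi transport, were at 122 ± 9.29 and 113 ± 17.3 CPM per kb in WT, and Rab2a, of the same step, at 101 ± 10.1. In WT the libraries of Rab7, Rab5c and Rab1a did not overlap, whereas Rab1a overlapped Rab1b and Rab1b overlapped Rab2a.

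The highest member of each remaining class in WT was Rab8b for recycling and exocytosis (46.0 ± 10.7 CPM per kb), Rab32 for phagosomes and lysosome-related organelles (35.1 ± 2.23), Rab28 among the ciliary and other Rabs (8.75) and Rab3d for regulated secretion (8.29 ± 1.01). Of the 9 secretory Rabs, which serve hormone, enzyme and granule release in specialised cells, only Rab3d reached 10 CPM in WT, and Rab3b, Rab3c, Rab26, Rab27b, Rab37 and Rab44 were under 1 CPM. Rab17 and Rab25, known from polarised epithelia, were also under 1 CPM in WT, as were Rab4b, Rab9b, Rab30, Rab33a, Rab36, Rab39b, Rab40b and Rab42. The 5 highest members held 57.2% of the summed CPM per kb of the family in WT, 59.3% in KO, 53.5% in WT_AC and 53.0% in KO_AC. Rab8b had rank 7 in WT, 11 in KO, 4 in WT_AC and 3 in KO_AC.

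**Figure D1:**
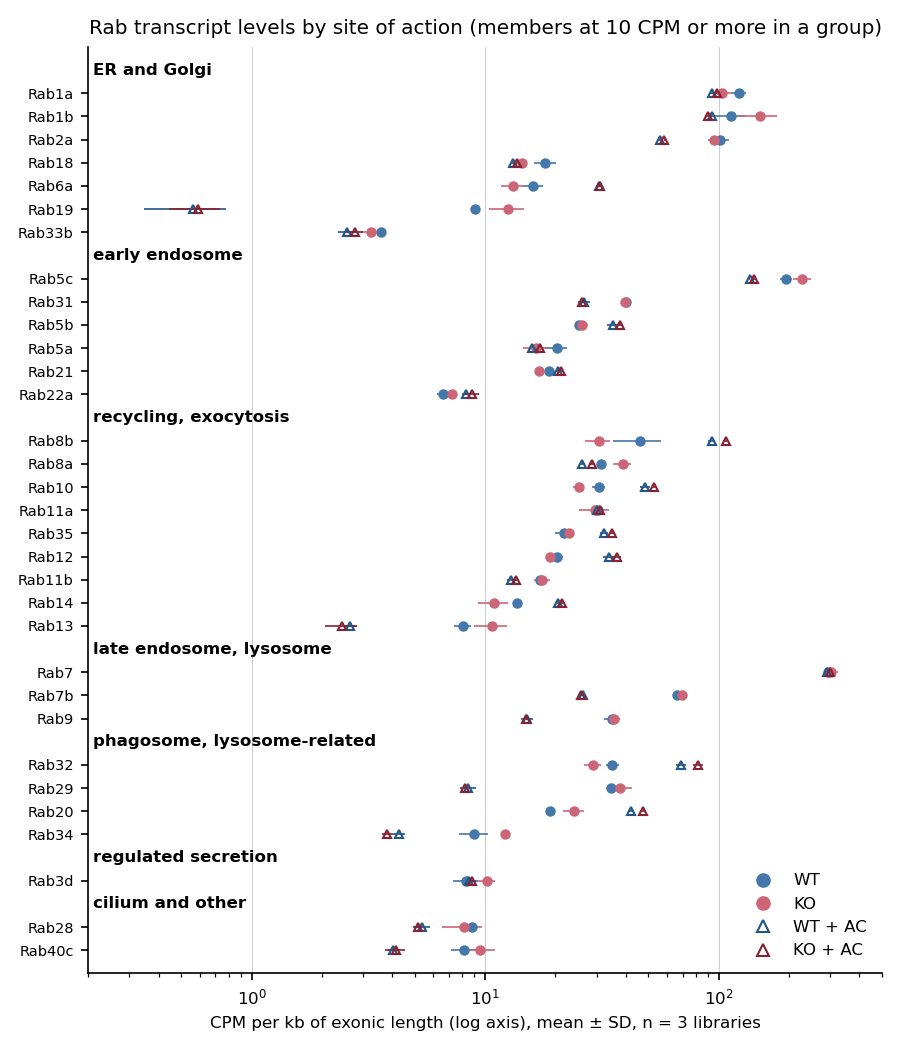
Level of the 32 members with at least 10 CPM in a group, as CPM, scaled within each table, per kb of exonic sequence on a log axis. Members are set by class of function, with points for the mean and bars for the SD of 3 libraries in each of the 4 groups. Rab7 is highest in every group at 291 to 304 CPM per kb, and Rab8b lies higher in both groups with apoptotic cells than in both without.

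The make-up of the family differed between the conditions with and without apoptotic cells. As a share of the summed CPM per kb of all 59 members, which does not depend on how libraries are scaled, recycling and exocytosis Rabs held 15.3 ± 0.743% in WT (14.5, 15.4 and 16.0%), 13.9 ± 0.475% in KO (13.6, 13.6 and 14.4%), 22.8 ± 0.354% in WT_AC (23.1, 22.4 and 23.0%) and 23.7 ± 0.0626% in KO_AC (23.7, 23.7 and 23.8%). The 6 libraries with apoptotic cells lay above the 6 without, and the 3 KO libraries lay below the 3 WT libraries. The phagosome and lysosome-related class held 6.91 ± 0.0882% in WT, 7.02 ± 0.181% in KO, 9.45 ± 0.194% in WT_AC and 10.2 ± 0.117% in KO_AC. The ER-to-Golgi class held 26.7 ± 0.359% in WT, 26.5 ± 0.609% in KO, 22.2 ± 0.333% in WT_AC and 21.5 ± 0.104% in KO_AC. Early endosome Rabs held 21.3 ± 0.738, 22.6 ± 0.120, 18.4 ± 0.116 and 18.2 ± 0.0646% in the same order, and late endosome Rabs 27.7 ± 0.341, 27.8 ± 0.286, 25.4 ± 0.341 and 24.7 ± 0.165%. Without KO replicate 3 the KO shares were 13.6% for recycling, 7.11% for phagosome, 26.8% for ER-to-Golgi, 22.6% for early endosome and 27.7% for late endosome Rabs. These shares were not tested. For a group of 3 libraries against another of 3, an exact permutation cannot give a two-sided p below 0.1. The shares were not corrected for each library's trend with length and GC content, which is given below. The family as a whole took 0.424 to 0.471% of all counts without apoptotic cells and 0.438 to 0.453% with them, ranges that overlap.

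Without apoptotic cells, 5 members differed between KO and WT: Rab8b was lower, and Rab15, Rab4a, Rab19 and Rab34 were higher. These were 5 of 48 members tested, or 10.4%, where 16.2% of all 12640 genes tested were called in this comparison (edgeR quasi-likelihood test, Benjamini-Hochberg adjusted p under 0.05 over all genes). The median log2 difference was 0.06 over members and 0.02 over all genes. With library totals in place of trimmed-mean scaling, where 12.8% of all genes were called, the split was 0 higher and 6 lower (Rab8b, Rab10, Rab14, Rab18, Rab1a and Rab32). Rab8b alone of the 5 thus kept its call, and the median over all genes was -0.08. Rab8b, which directs vesicles to the plasma membrane (chr9:66843664-66919687), was at 166, 221 and 267 CPM in the WT libraries and at 125, 149.6 and 160.0 in KO. All 3 KO libraries lay below all 3 WT libraries, with WT spread over the wider range. The log2 difference was -0.59 (SE 0.15, edgeR adjusted p = 0.0136), and without KO replicate 3 it was -0.71 (adjusted p = 0.00306). The call was lost without KO replicate 1 (adjusted p = 0.0943) and without WT replicate 3 (adjusted p = 0.114).

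The 4 members that were higher in KO act at different compartments and were at low to moderate levels. Rab15, of early and recycling endosomes (chr12:76797960-76822908), was at 1.64, 1.53 and 1.23 CPM in WT and 2.22, 2.78 and 2.82 in KO, 1.78-fold higher (log2 0.83, SE 0.24, edgeR adjusted p = 0.0227). Rab4a, of fast recycling from early endosomes (chr8:123805985-123835287), was at 1.34, 1.47 and 1.71 CPM in WT and 2.69, 2.78 and 2.30 in KO, 1.71-fold higher (log2 0.78, SE 0.23, adjusted p = 0.0278). Rab19, a Golgi-associated Rab (chr6:39381175-39390380), was at 14.1, 13.7 and 14.7 CPM in WT and 23.5, 18.1 and 17.5 in KO, 1.39-fold higher (log2 0.47, SE 0.14, adjusted p = 0.0311). For these members the groups did not overlap, and Rab19 was highest in KO replicate 1. Rab34, which acts in phagosome maturation and in ciliogenesis (chr11:78188430-78192193), was at 24.4, 21.7 and 18.2 CPM in WT and 28.4, 29.4 and 28.9 in KO, 1.35-fold higher (log2 0.43, SE 0.13, adjusted p = 0.0339). Its KO libraries were close to each other and all above WT. Without KO replicate 3 the 4 members kept their calls (adjusted p of 0.0354 for Rab15, 0.0149 for Rab4a, 0.0114 for Rab19 and 0.0372 for Rab34). Leaving out any one of KO replicate 1, WT replicate 2 or WT replicate 3 ended the calls of all 4, leaving out KO replicate 2 ended those of Rab15, Rab34 and Rab4a, and leaving out WT replicate 1 those of Rab19 and Rab4a.

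By class, 1 of 7 tested early endosome Rabs, 1 of 11 ER-to-Golgi Rabs and 1 of 7 phagosome Rabs were called higher, and recycling Rabs had 1 higher and 1 lower of 10. None of 4 late endosome, 5 secretory and 4 ciliary and other Rabs was called at this threshold. At an unadjusted p under 0.05 there were 18 members, 10 higher and 8 lower. The share of all genes at that threshold was not counted, here or below, so such counts describe the members only. Among the 18 were Rab1b (log2 0.41, edgeR adjusted p = 0.0508), Rab20 (0.34, 0.0643), Rab14 (-0.34, 0.0655), Rab10 (-0.29, SE 0.12, 0.0943), Rab32 (-0.28, 0.112) and Rab5a (-0.29, 0.122). Rab1a and Rab1b, paralogues with the same known function, had opposite signs: Rab1a was at 428, 462 and 498 CPM in WT and 438, 366 and 378 in KO, and Rab1b at 299, 247 and 222 in WT and 322, 411 and 289 in KO. The groups overlapped for both. Neither was called in this fit, and Rab1b was called higher by DESeq2 (adjusted p = 0.0482), voom (0.0462), without the filter on low counts (0.0402), with the replicate block (0.0362) and in the fit of 12 libraries (0.00693). Rab7 differed by 0.05 on the log2 scale (SE 0.13, adjusted p = 0.798), at 785, 762 and 746 CPM in WT and 834, 809 and 736 in KO.

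The number of members called without apoptotic cells moved with single libraries, as did the share of all genes. It was 15 of 48 without KO replicate 3 (8 higher and 7 lower, where 32.4% of all genes were called) and 2 without KO replicate 2 (5.42%). It was 0 without KO replicate 1 (2.42% of all genes; 18 members at an unadjusted p under 0.05, and 7 by DESeq2 with all libraries). It was 5 without WT replicate 1 (13.9%), 1 without WT replicate 2 (7.79%) and 0 without WT replicate 3 (2.87%; 9 at an unadjusted p under 0.05). The members that joined without KO replicate 3 included Rab14 (log2 -0.50, adjusted p = 0.00204), Rab10 (-0.35, 0.0216), Rab5a (-0.40, 0.0215), Rab1b (0.47, 0.0122) and Rab8a (0.33, 0.0177).

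**Figure D2:**
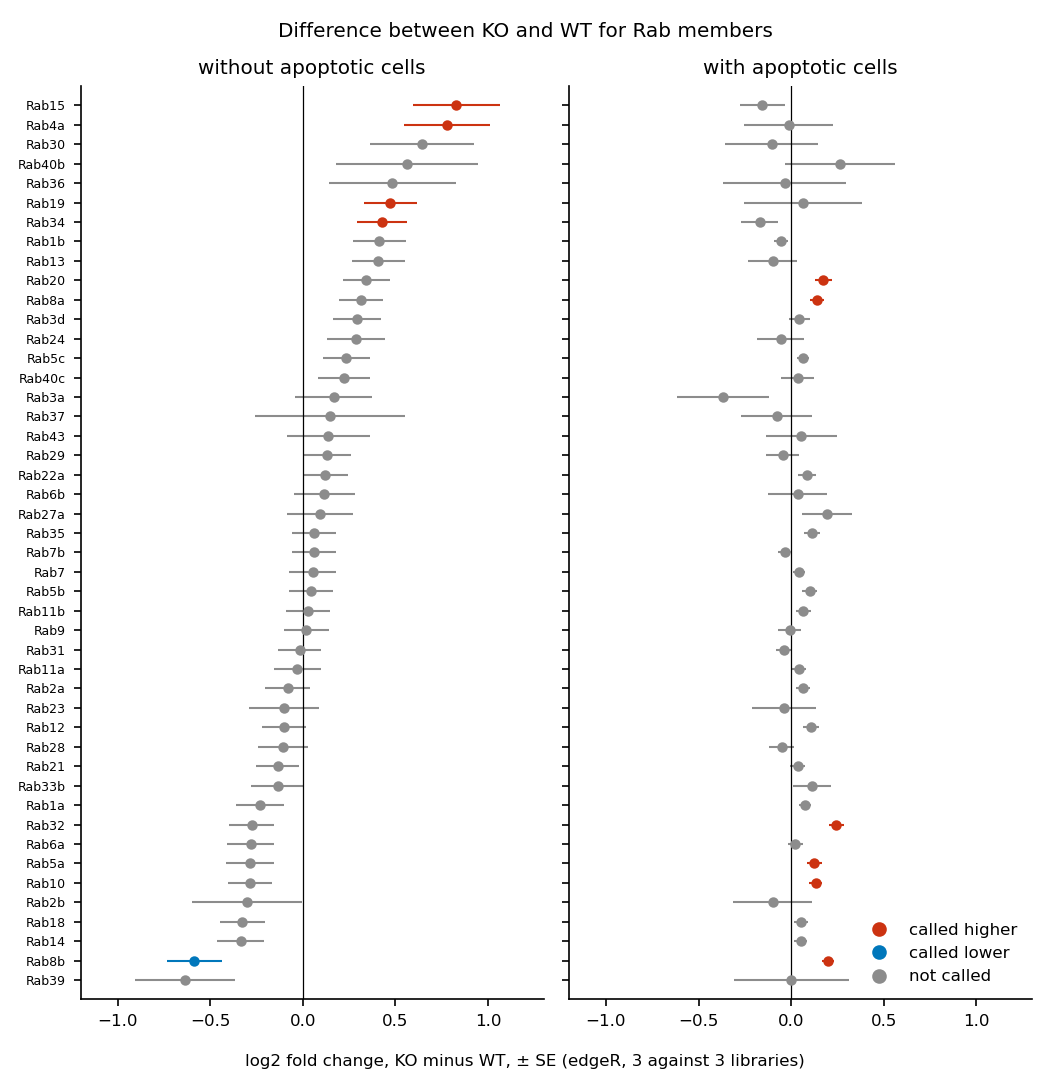
Log2 difference KO minus WT with its SE for the 46 members tested in both tables, without apoptotic cells in one panel and with them in the other, with called members in red (higher) or blue (lower) and others in grey. Error bars are wider without apoptotic cells, where 5 of 48 tested members were called, and narrower with them, where 6 of 52 were.

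Differences between KO and WT without apoptotic cells went with the base composition of the transcripts. Exonic GC content is that of each gene's longest annotated transcript. Across the 32 members with at least 10 CPM in WT, the log2 difference had a Pearson r of 0.774 with exonic GC content and of -0.514 with the log2 of exonic length. These points share the same 6 libraries and are not independent. The 16 members with less GC (36.8 to 48.1%) had a median log2 difference of -0.18, with 13 below 0, and the 16 with more GC (48.7 to 59.5%) a median of 0.23, with 14 above 0. Rab8b has 40.6% GC, Rab34 59.5%, Rab1a 42.0% and Rab1b 58.9%. Without KO replicate 3 the values of r were 0.735 and -0.540. With apoptotic cells the r with GC content was -0.215. When each library's level was set against the mean of its table, r with GC content was 0.423, 0.808 and 0.538 in KO and -0.047, -0.805 and -0.821 in WT, so replicates of one group differed from each other in it. With an offset for each library's own trend with length and GC content, 3 members were called, where 8.35% of all genes were: Rab30 (log2 1.16), Rab8a (0.30) and Rab32 (-0.39). None of the 5 above kept its call, with Rab8b at -0.29 (adjusted p = 0.143), Rab15 at 0.67 (0.0514), Rab4a at 0.46 (0.172), Rab19 at 0.18 (0.324) and Rab34 at 0.10 (0.574). The 12 fibroblast markers also moved in this comparison, 9 of them called higher in KO and 0 lower, as did 2 of 5 osteoclast markers (2 higher) and 3 of 11 macrophage markers (3 lower), and their part in the Rab differences was not tested.

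**Figure D3:**
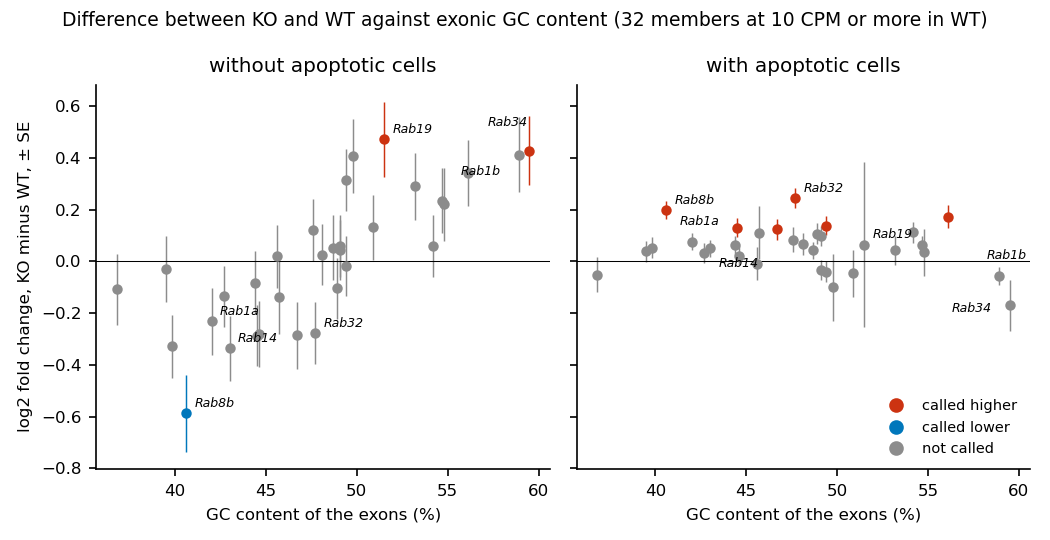
Log2 difference KO minus WT (vertical) against the GC content of the longest annotated transcript in percent (horizontal) for the 32 members with at least 10 CPM in WT, without apoptotic cells in one panel and with them in the other. Points rise with GC content without apoptotic cells (r = 0.774) and not with them (r = -0.215).

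With apoptotic cells, 6 members were higher in KO_AC than in WT_AC and 0 were lower: Rab32, Rab8b, Rab20, Rab8a, Rab10 and Rab5a. They were 6 of 52 members tested, 11.5%, where 11.3% of all 16467 genes were called, so the share was near the background. The differences were small, 1.09-fold to 1.18-fold, in libraries with a narrow spread (the coefficient of variation that edgeR terms biological was 0.0294, against 0.117 without apoptotic cells). Between libraries of a group, chi-square per degree of freedom was 1.40 to 1.93, against 4.96 to 35.5 without apoptotic cells. Whether this spread holds more than technical variation is not given by the labels. At an unadjusted p under 0.05, where all genes were not counted, there were 11 members, all higher. With library totals there were 10, 6 higher and 4 lower. By class, 3 of 10 recycling Rabs, 2 of 7 phagosome Rabs and 1 of 7 early endosome Rabs were called higher. None of 12 ER-to-Golgi, 5 late endosome, 7 secretory and 4 ciliary and other Rabs was called in this edgeR fit.

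Rab32, of lysosome-related organelles and pathogen-containing phagosomes (chr10:10545002-10558265), was at 167, 153 and 165 CPM in WT_AC and 199.97, 193 and 181 in KO_AC, 1.18-fold higher (log2 0.24, SE 0.04, edgeR adjusted p = 7.84e-06). Rab8b was at 456, 424 and 446 CPM in WT_AC and 503, 516 and 503 in KO_AC, 1.15-fold higher (log2 0.20, SE 0.03, adjusted p = 1.9e-05). Rab20, which acts in phagosome maturation (chr8:11453518-11478710), was at 59.1, 57.5 and 59.3 CPM in WT_AC and 64.8, 66.7 and 66.9 in KO_AC, 1.13-fold higher (log2 0.17, SE 0.04, adjusted p = 0.00526). For these 3 members every KO_AC library lay above every WT_AC library. Opposite-strand exons of E230013L22Rik cover 25.6% of Rab20, and whether counting used strand is not given in the sources used here. Opposite-strand exons also cover 64% of Rab2b, 62.4% of Rab24, 19% of Rab6a, 18.7% of Rab33b and 18.6% of Rab39b, which are called in comparisons below.

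Rab8a, the paralogue of Rab8b (chr8:72161200-72183904), was at 123, 118 and 124 CPM in WT_AC and 133, 138 and 130.1 in KO_AC, 1.10-fold higher (log2 0.14, SE 0.04, edgeR adjusted p = 0.0101). Rab10, of recycling and exocytosis (chr12:3247428-3309969), was at 176, 161 and 173 CPM in WT_AC and 187, 189 and 182 in KO_AC, 1.10-fold higher (log2 0.13, SE 0.04, adjusted p = 0.0128). Rab5a, of early endosome fusion (chr17:53479234-53507680), was at 83.6, 84.2 and 82.1 CPM in WT_AC and 88.5, 92.9 and 90.9 in KO_AC, 1.09-fold higher (log2 0.12, SE 0.04, adjusted p = 0.0371). Groups did not overlap for any of them. These 3 calls each fell with single libraries left out: Rab10 without KO_AC replicate 1, KO_AC replicate 2 or WT_AC replicate 2, Rab8a without KO_AC replicate 2 or WT_AC replicate 2, and Rab5a without KO_AC replicate 2 or any one WT_AC library. Without WT_AC replicate 2 the 3 members called were Rab20, Rab32 and Rab8b (7.99% of all genes), and without KO_AC replicate 3 there were 9 (12.7%). In a fit of all 12 libraries, which takes the wider spread of the libraries without apoptotic cells, no member was called (3 at an unadjusted p under 0.05). In that fit 0.934% of all genes were called. With library totals 4 members were called (12.3% of all genes), Rab32, Rab8b and Rab20 higher and Rab1b lower (log2 -0.10, adjusted p = 0.0254). Of 11 tested fibroblast markers 7 were lower in KO_AC and 0 higher, of 6 osteoclast markers 5 lower and 0 higher, and of 10 macrophage markers 0 lower and 5 higher. The part of any of them in the Rab differences was not tested.

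**Figure D4:**
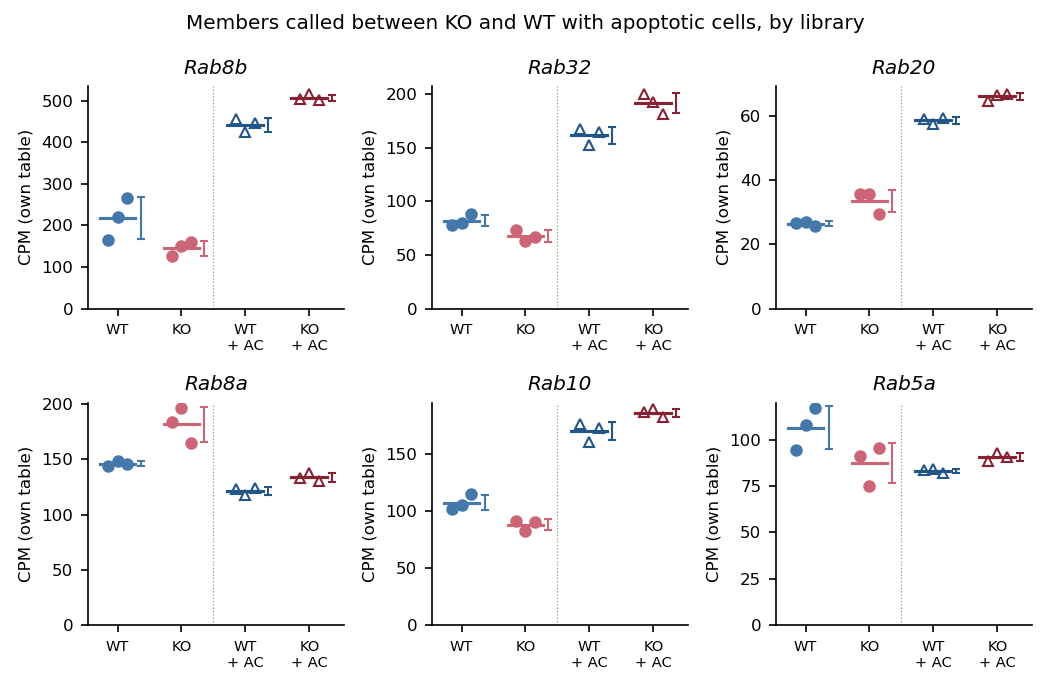
CPM, scaled within each table, of Rab8b, Rab32, Rab20, Rab8a, Rab10 and Rab5a in each of the 12 libraries (points), with the mean (line) and SD (bar) of each group of 3. Rab8b runs from 125 to 160.0 CPM in KO and from 503 to 516 in KO_AC, with WT and WT_AC between these ranges.

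Co-culture with apoptotic cells went with the largest differences in the family. In WT, 42 of 55 members tested were called, 14 higher and 28 lower, or 76.4%, where 85% of all 16810 genes were called. In KO, 47 of 55 were called, 18 higher and 29 lower, or 85.5%, where 86.3% of all genes were. The members called higher include Rab26, Rab33a, Rab39b, Rab3c, Rab9b and Rab44, and in KO also Rab4b. Those passed the filter on low counts only through libraries with apoptotic cells, where they were high. The median log2 difference was -0.39 over members in both genotypes, against 0.25 over all genes in WT and 0.32 in KO. The libraries with and without apoptotic cells stand in separate deposited tables, with 18335 to 18540 symbols counted per library in one and 31787 to 32801 in the other, so condition and table cannot be told apart. With library totals in place of trimmed-mean scaling, the median over all genes moved to 0.66 in WT and 0.76 in KO, and the members split into 21 higher and 21 lower in WT and 22 higher and 18 lower in KO. Fewer macrophages and less RNA per macrophage cannot be told apart in these bulk libraries.

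The 10 smallest p-values in WT all belonged to members that were lower with apoptotic cells. From here through the interaction, CPM of members by library are scaled over all 12 libraries. Rab29, which acts at the trans-Golgi network and on stressed lysosomes (chr1:131867224-131872887), was at 59.4, 56.8 and 60.3 CPM in WT and 11.5, 9.90 and 11.0 in WT_AC, 5.44-fold lower (log2 -2.44, SE 0.10, edgeR adjusted p = 5.71e-18). Rab19 was at 16.5, 16.0 and 17.04 CPM in WT and 0.660, 0.547 and 1.10 in WT_AC, 21.3-fold lower (log2 -4.41, SE 0.19, adjusted p = 1.16e-17). Rab7b, of transport from late endosomes to the trans-Golgi network (chr1:131688695-131715439), was at 348, 350.2 and 375 CPM in WT and 103, 106 and 107 in WT_AC, 3.40-fold lower (log2 -1.76, SE 0.08, adjusted p = 2.07e-17). No library with apoptotic cells overlapped one without for these members. In KO the same comparison gave Rab29 at 69.0, 68.9 and 55.2 CPM against 10.9, 10.6 and 10.5 (log2 -2.60, SE 0.10, adjusted p = 1.51e-18), Rab19 at 27.3, 20.9 and 20.4 against 1.05, 0.677 and 0.728 (log2 -4.79, SE 0.19, adjusted p = 8.53e-19) and Rab7b at 373, 375 and 368 against 103, 105 and 106 (log2 -1.83, SE 0.08, adjusted p = 7.72e-18).

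The next 7 were Rab9, which returns mannose 6-phosphate receptors to the Golgi (log2 -1.64, SE 0.09, edgeR adjusted p = 2.25e-15), Rab13, of exocytic transport to junctions and the leading edge (-2.03, SE 0.13, 9.28e-14), Rab2a (-1.27, SE 0.09, 1.16e-13), Rab34 (-1.49, SE 0.11, 1.34e-12), Rab31, of trans-Golgi and early endosome traffic (-1.02, SE 0.08, 4.37e-12), Rab40c, an adaptor of a ubiquitin ligase (-1.43, SE 0.12, 1.59e-11) and Rab5c (-0.94, SE 0.08, 5.2e-11). Rab9 went from 65.5, 72.6 and 75.7 CPM in WT to 22.2, 22.2 and 24.4 in WT_AC, and Rab2a from 225, 251 and 274 to 104, 102 and 105. Rab13 went from 19.5, 21.8 and 23.1 CPM to 5.23, 4.92 and 5.58, and Rab5c from 505, 518 and 461 to 259, 258 and 256. In KO, the 10 smallest p-values were those of Rab19, Rab29, Rab7b, Rab13 (log2 -2.51, SE 0.13, adjusted p = 7.44e-16), Rab34 (-2.07, SE 0.11, 1.11e-15), Rab9 (-1.64, SE 0.09, 1.69e-15), Rab40c (-1.59, SE 0.12, 1.34e-12), Rab2a (-1.10, SE 0.08, 1.98e-12), Rab5c (-1.08, SE 0.08, 2.24e-12) and Rab32 (1.10, SE 0.09, 2.7e-12). The remaining 18 members called lower in WT were Rab18, Rab28, Rab11b, Rab1a, Rab8a, Rab5a, Rab33b, Rab1b, Rab38, Rab39, Rab7, Rab3a, Rab24, Rab11a, Rab23, Rab3d, Rab21 and Rab6b, with log2 differences of -1.92 to -0.29. The remaining 20 called lower in KO were these without Rab21 and with Rab31, Rab4a and Rab30, at -1.63 to -0.33. Of 21 alternatives, 13 kept the call of Rab30 in KO and 17 that of Rab39.

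Among members at 10 CPM or more, those higher with apoptotic cells were of recycling, phagosome and Golgi transport. Rab8b was at 193, 257 and 309 CPM in WT and 395, 369.8 and 386 in WT_AC (log2 0.60, SE 0.12, edgeR adjusted p = 3.65e-05), and at 145, 173 and 187 in KO and 444, 454 and 445 in KO_AC (log2 1.41, adjusted p = 2.59e-11). Rab32 was at 91.2, 92.9 and 102 CPM in WT and 145, 133 and 143 in WT_AC (log2 0.56, adjusted p = 1.08e-06), and at 85.4, 72.6 and 77.9 in KO and 177, 169 and 161 in KO_AC (log2 1.10, adjusted p = 2.7e-12). Rab20 was at 31.2, 31.5 and 29.8 CPM in WT and 51.3, 50.1 and 51.3 in WT_AC (log2 0.72, adjusted p = 2.46e-08), and differed by 0.58 in KO (adjusted p = 7.6e-07). Rab10 was at 119, 123 and 134 CPM in WT and 153, 140.4 and 150.0 in WT_AC (log2 0.24, adjusted p = 0.00838), and at 106, 95.6 and 106 in KO and 166, 167 and 161 in KO_AC (log2 0.68, adjusted p = 1.56e-08). All libraries with apoptotic cells lay above all without for these members in both genotypes. Rab6a, of retrograde and post-Golgi transport, differed by 0.51 in WT and 0.84 in KO, and Rab12, of recycling endosome to lysosome transport, by 0.31 and 0.55, each called higher. Rab15 was called higher in both (1.80 and 0.84), as was Rab44 (1.45 and 2.12, from 4, 4 and 2 counts in WT to 12, 11 and 11 in WT_AC), and Rab14 (0.57), Rab35 (0.22), Rab2b (0.60) and Rab4b (1.19) were called higher in KO. Over the alternatives the call in KO was kept in 19 of 21 for Rab14, 17 of 21 for Rab35, 14 of 21 for Rab2b and 10 of 20 for Rab4b. The remaining members called higher, Rab26, Rab33a, Rab37, Rab9b, Rab39b and Rab3c, were under 1 CPM without apoptotic cells, as were Rab44 and Rab4b.

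By class, with apoptotic cells in WT and then in KO, ER-to-Golgi Rabs had 2 higher and 7 lower, then 3 and 8, of 12 tested. Early endosome Rabs had 0 higher and 4 lower, then 1 and 4, of 8, and late endosome Rabs 1 and 4 of 5 in both. Recycling Rabs had 4 higher and 4 lower, then 6 and 4, of 10, and phagosome Rabs 3 and 4 of 8 in both. Secretory Rabs had 4 higher and 2 lower of 8 in both, and ciliary and other Rabs 0 and 3 of 4 in both. The higher counts include members that passed the low-count filter only through libraries with apoptotic cells. These were Rab26, Rab3c and Rab44 (secretory), Rab33a (ER-to-Golgi), Rab39b (phagosome) and Rab9b (late endosome), and in KO also Rab4b (early endosome). Rab7 was lower by a log2 of -0.43 in WT and -0.41 in KO, but was 0.07 and 0.15 with the length and GC offset, and 0.03 in KO with library totals. Rab11a, of the recycling endosome, was -0.43 in WT and 0.21 with that offset, and -0.33 in KO and 0.12 with library totals. Rab21 (-0.29 in WT) and Rab3d (-0.39 in WT) were 0.12 and 0.02 with library totals, and Rab5a (-0.34 in KO) was 0.10. Rab14 in KO was 0.57, and -0.62 with the length and GC offset. No other called member changed sign in either genotype with library totals, DESeq2 size factors or the offset.

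Several members near the detection limit in macrophages without apoptotic cells had counts with them. Summed over 3 libraries, Rab26, of secretory granules, had 3 counts in WT and 91 in WT_AC (ratio of scaled counts 24.9, exact 95% interval 8.26 to 123) and 3 in KO and 108 in KO_AC (28.9, 9.61 to 142). Rab39b, a Golgi-associated Rab of neurons, had 3 and 55 counts in WT and WT_AC (15.1, 4.89 to 75.3) and 2 and 41 in KO and KO_AC (16.4, 4.27 to 140.2). Rab9b had 1 and 53 counts in WT and WT_AC (43.5, 7.48 to 1752), and 0 and 55 in KO and KO_AC, which is at least 4.90-fold higher against a floor of 3 counts per library. Rab3c, of synaptic vesicles, had 1 and 24 counts in WT and WT_AC (19.7, 3.21 to 811), and 0 and 42 in KO and KO_AC, at least 3.74-fold higher. The intervals cover counting error only. The members listed here were picked for few counts without apoptotic cells, some also for more than 1 CPM with them. Ratios above 1 are favoured by that choice, so the intervals are no test of a difference. Rab33a, a Golgi Rab also found in lymphocytes, had 4 and 105 counts in WT and WT_AC (21.6, 8.18 to 80.6) and 9 and 113 in KO and KO_AC (10.1, 5.12 to 22.6). Rab37, of secretory granules, had 26 and 145 counts in WT and WT_AC (4.58, 3.00 to 7.25) and 27 and 134 in KO and KO_AC (3.98, 2.62 to 6.26). Rab25 had 3 and 13 counts in WT and WT_AC (3.56, 0.978 to 19.5) and 1 and 13 in KO and KO_AC (10.4, 1.56 to 443), and Rab17 1 and 3 in WT and WT_AC (2.46, 0.198 to 129), and neither was tested in the fit. In the same libraries the number of T-cell markers above 1 CPM went from 2 of 19 to 12 of 19 in both genotypes, with Bcl11b at 0 in WT, 9.57 CPM in WT_AC and 8.71 in KO_AC. Of 14 such markers tested, 10 were called higher and 2 lower in each genotype. Lat went from 28.8 CPM in WT to 19.8 in WT_AC and Cd28 from 16.7 to 5.66. Cd2, Cd3d, Cd4, Cd5, Cd8a, Trac and Trbc2 stayed under 1 CPM in every group. The part of Jurkat RNA in these Rab counts was not tested.

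**Figure D5:**
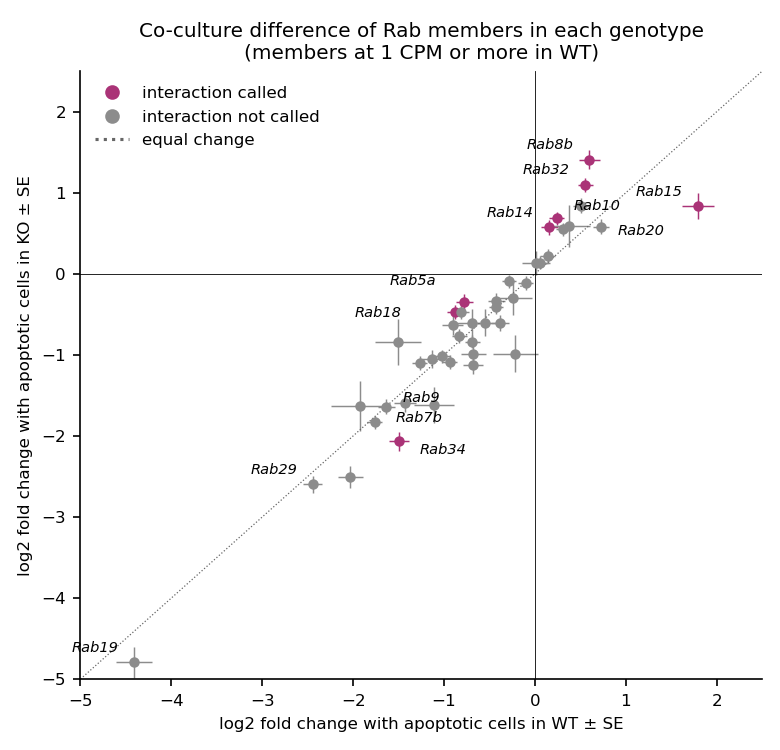
Log2 difference with minus without apoptotic cells in WT (horizontal) and in KO (vertical), with SE bars, for the 43 members with at least 1 CPM in WT, members called for the interaction in magenta, and a dotted line where both are equal. Rab8b, Rab32 and Rab10 lie above the line and Rab15 and Rab34 below it.

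The difference with apoptotic cells was not the same in libraries labelled KO and WT for 8 members, 6 with a more positive difference in KO and 2 with a more negative one. These were 14.5% of 55 tested, where 12.7% of all 16810 genes were called in this interaction, and 13 members had an unadjusted p under 0.05. The interaction includes KO against WT without apoptotic cells. If the serum labels are read as written, serum and genotype cannot be told apart in it either. Rab8b had the smallest p, with an interaction of 0.81 on the log2 scale (SE 0.16, edgeR adjusted p = 0.00231): it was lower in KO without apoptotic cells and higher in KO_AC with them. Rab32 had 0.55 (SE 0.12, adjusted p = 0.00403) and Rab10 0.44 (SE 0.12, adjusted p = 0.0126). Rab5a (0.43, SE 0.13, 0.0313) was at 110.0, 126 and 136 CPM in WT, 106, 86.8 and 112 in KO, 72.5, 73.3 and 71.1 in WT_AC and 78.1, 81.7 and 80.4 in KO_AC. Rab18, of ER contacts with lipid droplets, had 0.41 (SE 0.12, adjusted p = 0.0268), at 128, 145 and 158 CPM in WT, 119.9, 109 and 115 in KO, 77.4, 78.3 and 78.8 in WT_AC and 83.7, 83.5 and 80.1 in KO_AC. Rab14, of trans-Golgi and endosome traffic, had 0.41 (SE 0.13, adjusted p = 0.0307), at 216, 218 and 218 CPM in WT, 164, 151 and 201 in KO, 246, 239 and 244 in WT_AC and 259, 253 and 255 in KO_AC. For these 6 members the KO mean lay below WT without apoptotic cells and above it with them.

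The negative interactions were those of Rab15 (-0.96, SE 0.24, edgeR adjusted p = 0.0104) and Rab34 (-0.57, SE 0.16, adjusted p = 0.0186). Rab15 was at 1.92, 1.77 and 1.43 CPM in WT, 2.58, 3.21 and 3.29 in KO, 5.69, 6.41 and 5.73 in WT_AC and 5.41, 5.00 and 5.88 in KO_AC. Rab34 was at 28.5, 25.3 and 21.1 CPM in WT, 32.9, 34.0 and 33.7 in KO, 8.79, 8.35 and 9.42 in WT_AC and 7.61, 8.33 and 8.06 in KO_AC. In both, KO lay above WT without apoptotic cells. Of recycling Rabs, 3 of 10 had a higher interaction and 1 a lower one. None of 5 late endosome, 8 secretory and 4 ciliary and other Rabs was called in this fit. With the length and GC offset 5 members were called, where 8.59% of all genes were, and 4 of them were shared with the 8: Rab8b (0.45, adjusted p = 0.0359), Rab32 (0.58, 0.000418), Rab10 (0.31, 0.0255) and Rab15 (-0.82, 0.0206), with Rab30 (-1.32) in addition. Rab14 and Rab18 changed sign under it (-0.05 and -0.07). All 8 kept their calls without KO replicate 3, when 12 of 55 members and 24.9% of all genes were called, and 4 were called without KO replicate 2, WT replicate 3, KO_AC replicate 1 or WT_AC replicate 2 (6.49 to 8.1% of all genes). The counts with other single libraries left out lay between 5 and 8 (7.19 to 15% of all genes). Of the 12 fibroblast markers, 9 had a lower interaction and 0 a higher one, of 11 macrophage markers 5 had a higher one and 0 a lower one, and their part in the Rab values was not tested.

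Ratios of paralogues within each library do not depend on the scaling of libraries, but were not corrected for each library's trend with length and GC content. Exonic GC content was 40.6% for Rab8b, 49.4% for Rab8a, 42.0% for Rab1a, 58.9% for Rab1b and 54.7% for Rab5c. It was 46.7% for Rab5a, 49.1% for Rab5b, 48.7% for Rab7, 49.1% for Rab7b, 39.5% for Rab11a and 48.1% for Rab11b. The part of GC content in the ratios was not tested. The ratio of Rab8b to Rab8a, in CPM per kb, was 1.14, 1.47 and 1.81 in WT, 0.675, 0.753 and 0.960 in KO, 3.67, 3.56 and 3.56 in WT_AC and 3.74, 3.70 and 3.82 in KO_AC. Rab8a was thus the higher of the pair in KO and Rab8b in the other 3 groups. Groups did not overlap in any of the 4 contrasts, each at an exact two-sided permutation p of 0.1, the smallest that 3 libraries against 3 allow; 24 such comparisons were made over 6 pairs. The ratio of Rab7 to Rab7b was 4.41 ± 0.291 in WT, 4.38 ± 0.236 in KO, 11.1 ± 0.561 in WT_AC and 11.7 ± 0.317 in KO_AC. The ratio of Rab5c to Rab5b averaged 7.69 in WT, 8.81 in KO, 3.86 in WT_AC and 3.76 in KO_AC, and that of Rab5c to Rab5a 9.69, 14.0, 8.57 and 8.23. Rab1a to Rab1b averaged 1.11, 0.710, 0.992 and 1.09, and Rab11a to Rab11b 1.76, 1.69, 2.33 and 2.29. Without KO replicate 3 the KO means were 0.714 for Rab8b to Rab8a, 4.51 for Rab7 to Rab7b, 9.23 for Rab5c to Rab5b, 15.3 for Rab5c to Rab5a, 0.674 for Rab1a to Rab1b and 1.69 for Rab11a to Rab11b. Among the annotated transcripts of these pairs, 8.95% of 75-base words of Rab7, 8.08% of Rab11b, 7.93% of Rab5b and 4.4% of Rab8b also occur in another gene or pseudogene, so reads may be split there. For Rab43 the share is 74.2% (Gm45140) and for Rab4b 52.5% (Gm21983), and their counts are uncertain.

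The proteins that act on Rabs were described from 6 lists. Without apoptotic cells 22 of 122 tested were called between KO and WT, or 18%, near the 16.2% of all genes. The count was 5 with the length and GC offset, 41 without KO replicate 3 (where 32.4% of all genes were called), and 0 to 41 over all alternatives. Of 31 exchange factors tested, 0 were higher and 6 lower in KO, led by Rin2, an exchange factor of Rab5 (138 CPM in WT and 96.1 in KO, log2 -0.52, edgeR adjusted p = 0.0092). Of 30 activating proteins, 1 was higher (Tbc1d10a, log2 0.50) and 4 lower, led by Evi5 (-0.52). Of 8 prenylation and recycling genes, the escort proteins Chm (22.9 and 14.5 CPM, log2 -0.65, adjusted p = 0.00874) and Chml (5.14 and 3.12, -0.71, 0.0143) were lower and the Rab acceptor Rabac1 (232 and 338, 0.54, 0.0149) higher. Of 23 early and recycling endosome effectors, 4 were lower, led by the Rab5 tether Eea1 (40.8 and 26.9 CPM, log2 -0.60, adjusted p = 0.0172) and the Rab5 effector Appl1 (-0.51, 0.0176). Of 16 late endosome effectors, the retromer subunits Vps35 (-0.44, but 0.08 with the length and GC offset) and Vps26a (-0.37) were lower. Of 14 Golgi and secretion effectors, Gcc2 (-0.71) was lower and Rilpl2 (0.49) higher. With the offset, Chm was at -0.16 (adjusted p = 0.302), Chml at -0.33 (0.197), Eea1 at -0.19 (0.36), Appl1 at -0.10 (0.522) and Rin2 at -0.31 (0.0525). Without KO replicate 1 the calls of Rin2 (0.0522), Chm (0.0616), Chml (0.0702), Eea1 (0.109), Appl1 (0.0659), Vps35 (0.0957) and Vps26a (0.094) were lost. Those of Rin2, Chm, Eea1, Appl1, Vps35 and Vps26a were also lost without WT replicate 3, and those of Appl1, Vps35 and Vps26a without KO replicate 2 or WT replicate 2. Gcc2 lost its call without KO replicate 1, KO replicate 2 or WT replicate 3, and Rilpl2 and Evi5 without any one of these or WT replicate 2. Over 16 alternatives the log2 difference was -0.96 to -0.28 for Gcc2, 0.12 to 0.60 for Rilpl2 and -0.77 to -0.13 for Evi5.

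With apoptotic cells 13 of 129 of these genes were higher in KO_AC and 0 lower, or 10.1%, near the 11.3% of all genes, with counts of 0 to 18 over the alternatives. Early and recycling endosome effectors had 5 of 23, exchange factors 4 of 32, Golgi effectors 2 of 18, activating proteins 1 of 32, prenylation genes 1 of 8 and late endosome effectors 0 of 16. The smallest p was that of Rab11fip1, an effector of Rab11 recycling endosomes, at 362 CPM in WT_AC and 449 in KO_AC (log2 0.31, edgeR adjusted p = 8.97e-10), followed among effectors by Ehd1, a membrane-remodelling ATPase of recycling endosomes (643 and 735 CPM, 0.19, 2.94e-05) and Myo5a, a myosin motor (438 and 495, 0.18, 0.00016). Others were Rabgef1, an exchange factor of Rab5 (0.18), Tbc1d2b (0.16), Rabac1 (0.19), Ehbp1l1 (0.12) and Golgb1 (0.12). Without single libraries, Rabac1 lost its call 4 times (adjusted p of 0.0518 to 0.122), Ehbp1l1 4 times (0.0502 to 0.137) and Golgb1 5 times (0.0667 to 0.24).

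Against macrophages without apoptotic cells, 105 of 128 regulators were called in WT (82%, below the 85% of all genes) and 98 in KO (76.6%, below 86.3%). CPM in this paragraph are scaled over all 12 libraries, and those of the preceding paragraphs on regulators within each table. Rab11fip1 went from 8.97 CPM in WT to 314 in WT_AC (log2 5.13, edgeR adjusted p = 1.03e-23) and from 9.32 in KO to 396 in KO_AC (log2 5.40, adjusted p = 3.75e-24). Ehd1 went from 59.8 to 558 CPM in WT (log2 3.22) and from 66.6 to 649 in KO (3.29), and Micall1, an adaptor of Rab8 and Ehd1 on recycling tubules, differed by 2.16 in WT and 2.40 in KO. The exchange factor Dennd4a, which acts on Rab10, went from 6.50 to 58.5 CPM in WT (log2 3.17) and from 4.35 to 63.7 in KO (3.86). Of 24 early and recycling effectors 13 were higher and 8 lower in WT, of 32 exchange factors 20 and 8, of 31 activating proteins 15 and 10, and of 17 Golgi effectors 14 and 1. Of 16 late endosome effectors 0 were higher, 9 lower and 7 not called in WT (56.2% called), led by Vps29 of the retromer (log2 -0.95) and Plekhm1, a Rab7 effector (-1.01). Of 8 prenylation genes 2 were higher and 5 lower, with Rabac1 at -1.96 and the dissociation inhibitor Gdi2 at -0.90. In KO the counts were 14 and 7, 18 and 9, 16 and 6, 11 and 1, 2 and 6, and 3 and 5 in the same order. The interaction was called for 19 of 128 regulators (14.8%, where 12.7% of all genes were called), for 8 with the length and GC offset, for 42 without KO replicate 3 (where 24.9% of all genes were) and for 8 to 42 over all alternatives. Chm (0.74, adjusted p = 0.00402), Appl1 (0.63, 0.00376), Appl2 (0.57, 0.00564) and Ric1, part of the Rab6 exchange factor (0.55, 0.00917), had the smallest p. With the offset these were 0.15 (adjusted p = 0.448) for Chm, 0.18 (0.285) for Appl1, 0.55 (0.00299) for Appl2 and 0.23 (0.253) for Ric1.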

How the data were processed

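The deposited values are raw read counts per gene for 12 libraries, in 1 table without and 1 with apoptotic cells. Per the submitters' processing notes, the authors used fastp, HISAT2 2.0.5, DESeq2 1.20.0 and the build mm10. How reads were counted, with which annotation and strand setting, is not given in the sources used here. Samples were grouped by the labels. The members and all lists were chosen with earlier results of these data known.

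Genes were filtered by filterByExpr, scaled by trimmed means (TMM) and tested with edgeR 4.0.16 (quasi-likelihood, R 4.3.3), with Benjamini-Hochberg adjustment over all genes tested and a call at an adjusted p under 0.05. KO and WT were compared within each table. Effects of apoptotic cells and the interaction came from 1 fit of all 12 libraries on the 54582 shared symbols. SE is that of the log2 difference. Exonic length (all exons of a gene merged), GC content (of its longest annotated transcript) and coordinates came from the GRCm38 annotation, and promoter windows from RefSeq (GRCm38.p6). The depth of 17000976 to 18770757 counts leaves members under 1 CPM with few counts, and summed counts with exact intervals are given for those among them called higher with apoptotic cells in WT and in KO, other than Rab44.

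Named were Kif13b, every called member (the 10 smallest p-values per comparison with SE and adjusted p, the rest by range and count), the highest member per class, Rab10, and up to 3 called regulators per list and comparison, together with members and regulators named after their values were seen to show the remaining range. Alternatives were DESeq2 1.42.0, its size factors, limma 3.58.1 voom, no filter, a length and GC offset, a replicate block, a joint or a 6-library fit, each library left out and, chosen after seeing the data, library totals. Scripts were tested on simulated data.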

Additional observations from a re-analysis of the deposited data

Results flagged for a closer look

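For these genes the difference with apoptotic cells was not the same in libraries labelled KO and WT, by the edgeR interaction test of the difference itself (adjusted p under 0.05 over all genes). If the serum labels are read as written, serum and genotype cannot be told apart in this test. Each value is the log2 difference with minus without apoptotic cells in KO, less the same in WT. Among the Rab genes, the value was 0.81 for Rab8b, 0.55 for Rab32, 0.44 for Rab10, 0.43 for Rab5a, 0.41 for Rab14, 0.41 for Rab18, -0.57 for Rab34 and -0.96 for Rab15. It was 0.74 for Kif13b, the targeted gene. Under the length and GC offset, Rab14 was at -0.05 and Rab18 at -0.07. Of 20 alternatives, 5 kept the call of Rab14, 8 that of Rab18, 8 that of Rab5a, 14 that of Rab34 and 18 that of Rab10. All 20 kept those of Rab8b, Rab32, Rab15 and Kif13b.

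Among regulators, the value was 0.74 for Chm and 0.72 for Chml, the escort proteins that present new Rabs for prenylation. It was 0.63 for Appl1 and 0.57 for Appl2, both effectors of Rab5. It was 0.53 for Vps35 and 0.46 for Vps26a of the retromer, though -0.08 for Vps35 with the length and GC offset, under which Chm was 0.15, Chml 0.29, Appl1 0.18 and Appl2 0.55. It was 0.55 for Ric1, 0.48 for Golgb1, 0.47 for Rin2 and 0.43 for Tbc1d15, with 0.23 for Ric1, 0.28 for Golgb1 and 0.25 for Rin2 under that offset. Tbc1d15 kept its call in 6 of 20 alternatives, with a lowest value of 0.08.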

How the results depend on the processing

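Condition and table are the same division of the libraries, and the libraries without apoptotic cells vary with length, GC content and replicate. The share of all genes called is given in brackets. Without apoptotic cells, 5 members were called between KO and WT (16.2%). The count was 3 with the length and GC offset (8.35%), 3 with that offset and a replicate block (11.6%) and 18 of 55 in the fit of 12 libraries (23.8%). It was 0 to 15 with each library left out (2.42 to 32.4%). A fit without KO replicates 1 and 2 leaves 1 KO library, so no count is given for it. With apoptotic cells, 6 (11.3%) became 0 in the fit of 12 libraries (0.934%), where 3 members had an unadjusted p under 0.05. It became 3 to 9 with each library left out (7.03 to 12.7%). The interaction's 8 (12.7%) became 5 with the offset (8.59%), 5 with the offset and block (8.48%), and 4 to 12 with each library left out (6.49 to 24.9%). The other alternatives left these counts, and all did those of 42 and 47 called with apoptotic cells, within 1.5 times, but not always the same members: with library totals, the 5 became 0 higher and 6 lower (1 of the 5 kept) and the 6 became 3 higher and 1 lower (3 kept).

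Same-numbered libraries did not deviate together (r -0.204 to 0.112), so the numbers were not taken as pairs. With a replicate block the counts were 7, 5, 42, 46 and 9 (5, 6, 42, 47 and 8 without).

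Signs changed with the length and GC offset, with and without the block, for Vps35 between KO and WT without apoptotic cells (0.0749 with the block, 0.0753 without), Rab11a (0.21 and 0.21) and Rab7 (0.0735 and 0.0736) with apoptotic cells in WT, Rab14 (-0.62 and -0.62) and Rab7 (0.15 and 0.15) in KO, and the interactions of Rab14 (-0.0498 and -0.0480), Rab18 (-0.0724 and -0.0749) and Vps35 (-0.0788 and -0.0791). Signs changed with library totals for Rab21 (0.12) and Rab3d (0.0208) in WT, and for Rab11a (0.12), Rab5a (0.10) and Rab7 (0.0347) in KO. The cause of these changes was not tested.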
